A study of Canis lupus familiaris with 28 samples.

Results

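*GALR1* (ENSCAFG00000000015), the gene of the galanin receptor 1, was described as 1 of 32704 gene identifiers in the 28 libraries of a study of canine histiocytic sarcoma (HS). The identifier was found by pairing it with its gene symbol in the study's supplementary gene lists. The gene was picked because its level was higher in the 3 tumors of the hemophagocytic subtype (HHS) and because it was present in DC3F9, so those levels are given as a description with no test. Galanin is a neuropeptide released by neurons and by some endocrine cells. Its receptor 1 spans the membrane, couples to inhibitory G proteins that lower cyclic AMP, and is best known from the nervous system, the gut and some epithelial tumors. HS is a malignancy of the dendritic cell and macrophage lineage, and in HHS the tumor macrophages engulf blood cells.

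RNA was measured in tumors of 18 Bernese Mountain Dogs (BMDs), 15 of HS and 3 of HHS. The 15 HS tumors came from the lung (5), the thorax or a thoracic mass (3), the liver (3), the spleen (2) and a limb, that is a leg mass or the shoulder (2), and the HHS tumors came from a lymph node (HS41), the liver (HS46) and the lung (HS53). The 6 unaffected controls were blood of 3 BMDs and the spleen, lung and liver of German Shepherds. The liver control was left out of the tests, as it was by the study. The cells were the HS cell lines BD and OD from BMDs and PJ from a Rottweiler, 1 library each, and DC3F9, unstimulated dendritic cells that had been differentiated from a mongrel's monocytes by the cytokines GM-CSF and IL-4. No treatment, engineered allele or age is given for any of these groups.

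Each tumor had 99701394 to 171815073 counted reads, each control 133524755 to 180801439 and each library of cells 82007857 to 131518875. Levels are in CPM, the count scaled to a library's total of counted reads, and 3 counts, taken as the limit of detection, were worth between 0.0166 CPM in the deepest and 0.0366 CPM in the shallowest library. Intervals and limits cover counting error only. The flow cell of the blood controls differed from that of all tumors and tissue controls, so that flow cell, breed and tissue cannot be told apart among the controls. Tumors and cells were sequenced at different sites and counted in separate tables, and no test was made between them. In tissue, fewer cells of a type and less RNA per cell cannot be told apart. Myeloid expression was looked up in 7 myeloid genes, whose summed level was 5222 to 8390 CPM in the HHS tumors, 2225 to 25210 CPM in the HS tumors of sites other than the lung and 4582 to 7551 CPM in those of the lung. It was 14280 to 18340 CPM in the blood controls, 8434 CPM in the spleen, 2229 CPM in the lung and 323 CPM in the liver control. The range of the 5 controls without the liver control overlapped that of the tumors. The lung and liver tumors lay above the single control of their tissue, and the spleen tumors lay below theirs.

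In the HHS tumors, *GALR1* ranged over more than an order of magnitude. HS53, the lung HHS tumor, held 981 counts (6.996 CPM, exact 95% Poisson interval 6.56 to 7.45). HS46, from the liver, held 226 counts (1.32 CPM) and HS41, from a lymph node, held 39 counts (0.290 CPM). The mean was 2.87 ± 3.61 CPM (SD, n = 3) and the median 1.32 CPM, and HS53 supplied 78.7% of the 1246 counts of the subtype. HS53 stood 5.32-fold above HS46 (95% counting interval 4.59 to 6.17), and HS46 stood 4.54-fold above HS41 (3.22 to 6.56), and the SD inside the subtype exceeded its mean.

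**Figure D1:**
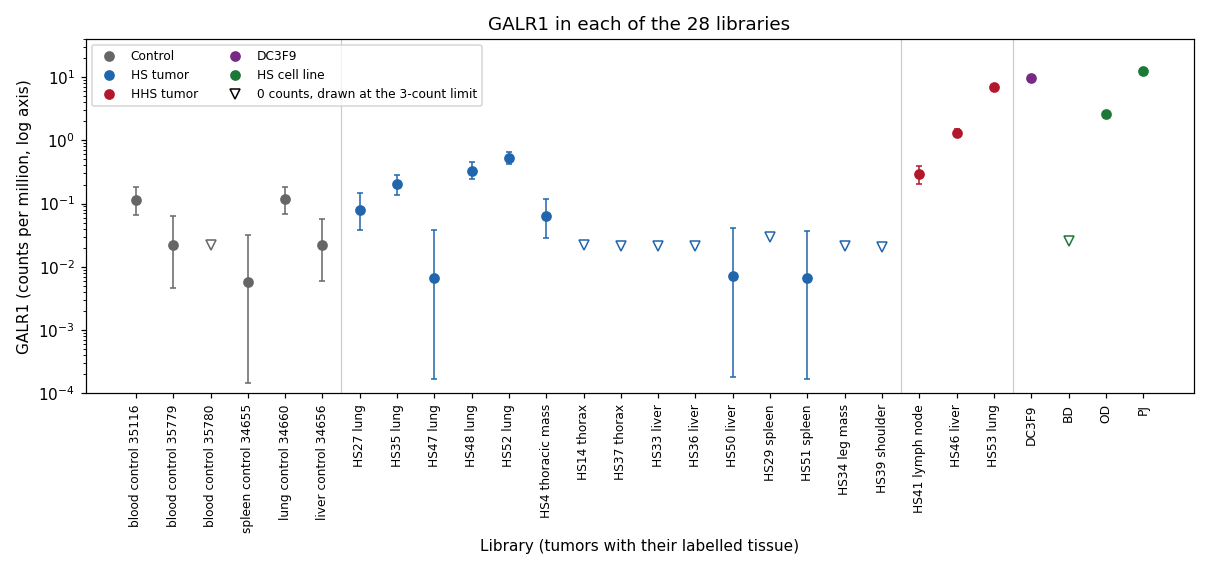
GALR1 level (CPM, log axis) in each of the 28 libraries, with exact 95% Poisson intervals as bars, and with open triangles at the 3-count limit for libraries with 0 counts. The HHS tumors run from 0.290 to 6.996 CPM, and HS48 (0.332 CPM) and HS52 (0.524 CPM), both lung HS tumors, lie above the lowest of them. Tumor and cell levels come from tables processed separately.

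In the 15 HS tumors the gene was mostly at or below detection. The lowest value was 0 CPM, the median 0.00662 CPM and the highest 0.524 CPM, with a mean of 0.0815 ± 0.155 CPM (SD, n = 15). In 7 of these tumors no read was counted, which allows up to 3 counts in each, and 5 lay above the limit of detection. The HHS and HS tumors overlapped. HS52 stood 1.81-fold above HS41 (1.23 to 2.71), while HS48 and HS41 differed by less than counting error, with a ratio of 1.15 (0.725 to 1.81). HS53 and HS46 lay above every HS tumor, HS53 by 13.4-fold (10.8 to 16.8) and HS46 by 2.51-fold (1.96 to 3.24) over HS52.

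The fitted log2 fold change (log2FC) of HHS over HS tumors was 4.98, and it was 3.33 without HS53 and 5.51 without HS41. That value is a description, since the gene was picked on this contrast. In the same edgeR quasi-likelihood fit over all genes 0 of 19853 genes were called (0.0%) (called meaning a log2FC beyond ±1.5 with a Benjamini-Hochberg adjusted p under 0.05), 797 had an unadjusted p under 0.05, and DESeq2 called 1. Against the 5 controls the log2FC of HHS was 5.82, and it was 4.18 without HS53, in a fit that called 25 of 18643 genes (0.134%), 0.123% higher and 0.0107% lower. HS53, from the lung, exceeded the lung control 59.8-fold (37.6 to 101.3). HS41, from a lymph node and without a control of its tissue, exceeded the lung control 2.48-fold (1.38 to 4.60). HS46, from the liver, held 1.32 CPM beside 0.0221 CPM in the liver control (1.30 and 0.0646 CPM with TMM factors). Among liver HS tumors, HS46 exceeded HS50 180-fold (32.1 to 7157), but HS50 held 1 count, under the 3-count limit. The remaining liver HS tumors held 0 counts. The 9 liver genes of a marker list summed to 4.86 CPM in HS46 and to 7501 CPM in the liver control. They also summed to 1265 CPM in HS27, from the lung, and to 643 CPM in HS41, so the sum does not measure liver content in tumors.

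In the controls the gene was near the limit of detection. The lung control held 18 counts (0.117 CPM) and blood control 35116 held 17 counts (0.115 CPM), which did not differ beyond counting error (ratio 1.02, 0.494 to 2.10). The liver control held 4 counts (0.0221 CPM), blood control 35779 held 3 counts (0.0222 CPM), the spleen control held 1 count and blood control 35780 held 0 counts. The mean over the 5 controls was 0.0520 ± 0.0591 CPM (SD, n = 5), and the blood controls alone ran from 0 to 0.115 CPM.

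Between the HS tumors and unaffected tissue the values are likewise a description, since the HS tumors were the low side of the contrast on which the gene was picked. The log2FC of the 15 HS tumors over the 5 controls was 0.80 (SE 1.49), smaller than its SE, and it was 0.90 (SE 1.93) against blood and 0.68 (SE 2.32) against the spleen and lung controls that shared the tumors' flow cell. Mean log2 CPM (prior count 2) had the opposite sign. It was −4.84 ± 1.90 (SD, n = 15) in the HS tumors and −4.64 ± 1.41 (SD, n = 5) in the controls, a difference of −0.20 that was smaller than either SD. In the fit 3248 of 19112 genes were called (17.0%), 6.97% higher and 10.0% lower.

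Within the HS tumors the level went with the tissue label. Among the lung tumors, HS52 held 90 counts (0.524 CPM), HS48 held 43 counts (0.332 CPM), HS35 held 32 counts (0.203 CPM), HS27 held 10 counts (0.0806 CPM) and HS47 held 1 count (0.00677 CPM). Among the 10 HS tumors of other sites, HS4, a thoracic mass, held 9 counts (0.0633 CPM), HS50 and HS51 held 1 count each, and the remaining 7 held 0 counts. Thus 4 of 5 lung tumors and 1 of 10 others were above the limit of detection, and the groups overlapped through HS47. The means were 0.229 ± 0.206 CPM (SD, n = 5) and 0.00772 ± 0.0197 CPM (SD, n = 10). HS52 and HS48 differed by 1.58-fold (1.09 to 2.33), and HS27 and HS4 did not differ beyond counting error (ratio 1.27, 0.465 to 3.54).

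The mean of log2 CPM was 3.097 higher in the lung HS tumors, at −2.77 ± 1.82 (SD, n = 5) against −5.87 ± 0.75 (SD, n = 10), and a two-sided exact permutation test over 3003 assignments gave p = 0.002. This single-gene p is not adjusted for the other genes, and the comparison was chosen with earlier results of these data known. Across all genes the difference was not called. The filter on low counts removed *GALR1* from the site comparison, and without that filter its log2FC was 4.76 (SE 1.23, edgeR unadjusted p = 0.00105, adjusted p = 0.449; 2 of 27024 genes called, 0.0074%), and 4.90 with DESeq2 (adjusted p = 0.0747). With the 3 HHS tumors added to their tissues the log2FC was 3.14 (adjusted p = 0.394). Lung over liver HS tumors gave 6.12 (SE 2.09, unadjusted p = 0.0114, adjusted p = 1.0), in a fit that called 0 of 20428 genes, had 1002 at an unadjusted p under 0.05, and for which DESeq2 called 72.

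Markers of normal lung were set beside these levels. *AGER*, the receptor for advanced glycation end products and a gene of type I alveolar cells, was at 1982 CPM in the lung control. It was also at 14.9 to 23.7 CPM in the 3 blood controls, so low levels of it do not measure alveolar content. The lung HS tumors held 57.4 CPM (HS35), 53.8 CPM (HS47), 14.4 CPM (HS52), 6.36 CPM (HS48) and 2.88 CPM (HS27), the HS tumors of other sites 1.27 to 13.4 CPM and the HHS tumors 4.92 to 10.2 CPM. *AGER* was 2.04 higher on the log2 scale in lung than in other HS tumors (edgeR unadjusted p = 0.00155, not called). The 5 genes of ciliated airway cells summed to 24.9 CPM in the lung control. They also summed to 13.98 CPM in the liver control, so the sum does not measure airway content. Among the lung HS tumors they summed to 12.03 CPM in HS52, 7.34 CPM in HS48, 4.45 CPM in HS35, 2.50 CPM in HS47 and 1.36 CPM in HS27. The first 3 of these tumors were in the order of their *GALR1* levels, while HS47 and HS27 were in the reverse order. The sums were 0.533 to 5.57 CPM in the HS tumors of other sites and 1.497 to 2.125 CPM (HS53) in the HHS tumors. Over the 18 tumors the rho of the single genes with *GALR1* ran from −0.03 (*CCDC170*) to 0.60 (*RSPH4A*) and 0.64 (*KIF6*), a description over points that share library depth. HS52 held 4.48 times the *GALR1* level of the lung control (2.68 to 7.89). The part of normal lung in the *GALR1* levels was not tested.

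**Figure D2:**
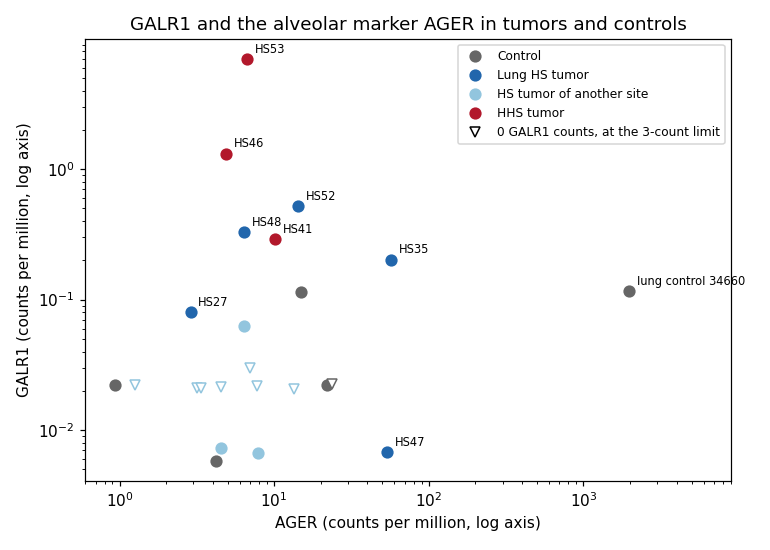
GALR1 against the alveolar marker AGER (both in CPM, log axes) in the 18 tumors and 6 controls, 1 point per library, with open triangles at the 3-count limit where GALR1 had 0 counts. The lung control stands alone at 1982 CPM of AGER, while HS53 has the highest GALR1 (6.996 CPM) at 6.68 CPM of AGER.

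In cultured cells *GALR1* was present in 3 of 4 libraries. PJ held 1202 counts (12.3 CPM), DC3F9 held 794 counts (9.68 CPM), OD held 336 counts (2.55 CPM) and BD held 0 counts, which allows up to 0.0254 CPM. DC3F9 was at least 381-fold, OD at least 100-fold and PJ at least 485-fold higher than BD, computed against 3 counts in BD. OD was at 0.264 times the level of DC3F9 (0.232 to 0.300). By library totals PJ stood 1.27-fold above DC3F9 (1.16 to 1.40), but with TMM factors the order turned, at 11.5 CPM in PJ and 12.2 CPM in DC3F9, so these neighbors in the order cannot be separated. Both BMD lines, BD and OD, lay below DC3F9, and they were at opposite ends of detection. The 3 lines averaged 4.96 ± 6.51 CPM (SD, n = 3), and with 1 library for DC3F9 no test was made. PJ, DC3F9 and OD lay above every HS tumor, across tables that were processed separately.

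*GALR3*, another receptor for galanin and the second member of the family with a name here, was at the limit of detection in nearly every library. It passed the filter on low counts in none of the comparisons. It had 0 counts in the 6 controls, in HS53 and HS46, and in PJ and DC3F9, 2 counts in HS41, 3 counts in BD and 1 count in OD, and in the HS tumors its median was 0.00677 CPM and its highest value 0.0351 CPM. PJ, DC3F9 and HS53, the 3 libraries with most *GALR1*, thus had 0 counts of *GALR3*. The gene of galanin itself and that of its receptor 2 were not analysed here.

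The other receptors, ligands and signaling genes with a name were then described by their counts in HS tumors against controls. Of 10 peptide receptors coupled to G proteins 4 passed the filter, 1 was called higher and 1 lower (6.97% and 10.0% of all genes tested), with a median log2FC of 1.19 beside −0.05 over all genes tested. *AVPR1A*, a receptor for vasopressin, was higher, with a log2FC of 5.73 (SE 1.32, edgeR adjusted p = 0.004). It had 0 counts in the 3 blood controls, 0.0931 CPM in the spleen and 0.0390 CPM in the lung control. In the HS tumors it was 0.0331 CPM at the lowest (HS51), 1.21 CPM at the median and 4.54 CPM at the highest. Only HS51 overlapped these controls, but the liver control, left out of the fit, held 0.144 CPM, above HS33 (0.115 CPM) as well. The HHS tumors held 2.50 CPM (HS41), 0.716 CPM (HS46) and 0.335 CPM (HS53), in the opposite order to *GALR1*, and the cells held 0 to 0.0103 CPM. With only the spleen and lung controls the call was lost (4.48, adjusted p = 0.0862).

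*MCHR1*, a receptor for melanin-concentrating hormone, was lower in the fit, by a log2FC of −3.95 (SE 1.34, edgeR adjusted p = 0.0356), but that call rested on 1 library. The spleen control held 44.7 CPM, while the other 4 controls held 0.0374 to 0.455 CPM and the HS tumors 0.00634 to 7.72 CPM with a median of 0.0989 CPM. Without the spleen control the log2FC was 1.64 (adjusted p = 0.455). The highest HS tumor was HS51, itself from the spleen.

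Among 12 other receptors of the class, 7 passed the filter and 0 were called in edgeR (1 at an unadjusted p under 0.05), with a median log2FC of 0.57. Of 5 peptide ligands 3 were tested, and 2 were called lower, where 10.0% of all genes tested were. *VIP*, vasoactive intestinal peptide, had 0 counts in 11 HS tumors and at most 0.0927 CPM (HS51), against 0.0887 to 0.345 CPM in the 5 controls (log2FC −4.08, SE 1.02, adjusted p = 0.00689). *TAC3*, which encodes neurokinin B, held 17.5 to 104.9 CPM in blood, 29.7 CPM in the spleen control and 0.540 CPM in the lung control, against 0.0424 to 17.2 CPM in the HS tumors, HS51 again the highest (log2FC −4.89, SE 1.00, adjusted p = 0.00183). The liver control, left out of the fit, held 0 counts of *VIP* and 0.149 CPM of *TAC3*. Both calls were lost where blood was left out. The log2FC of *VIP* was then as large, at −4.18 (SE 1.41, adjusted p = 0.0764), and that of *TAC3* was −3.06 (SE 1.29, adjusted p = 0.156).

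Of 13 genes of G protein and second messenger signaling 12 were tested, and 1 was called, in the lower direction, a share near the 10.0% of all genes tested, with a list median of −0.69. It was *ITPR3*, a calcium channel of the endoplasmic reticulum that opens on inositol trisphosphate. It held 53.4 to 120.7 CPM in the 5 controls and 1.75 to 35.5 CPM in the HS tumors. The liver control, left out of the fit, held 3.12 CPM, inside the HS range. The edgeR log2FC was −2.85 (SE 0.49, adjusted p = 4.99e-04), and the call was kept against the spleen and lung controls (−2.49, adjusted p = 0.0312). The HHS tumors held 12.4 to 23.9 CPM, inside the HS range. In the cells BD held 0.203 CPM and OD 19.8 CPM. *GNAQ*, a G protein alpha subunit, had a log2FC of −0.57 and missed the call (adjusted p = 0.375).

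**Figure D3:**
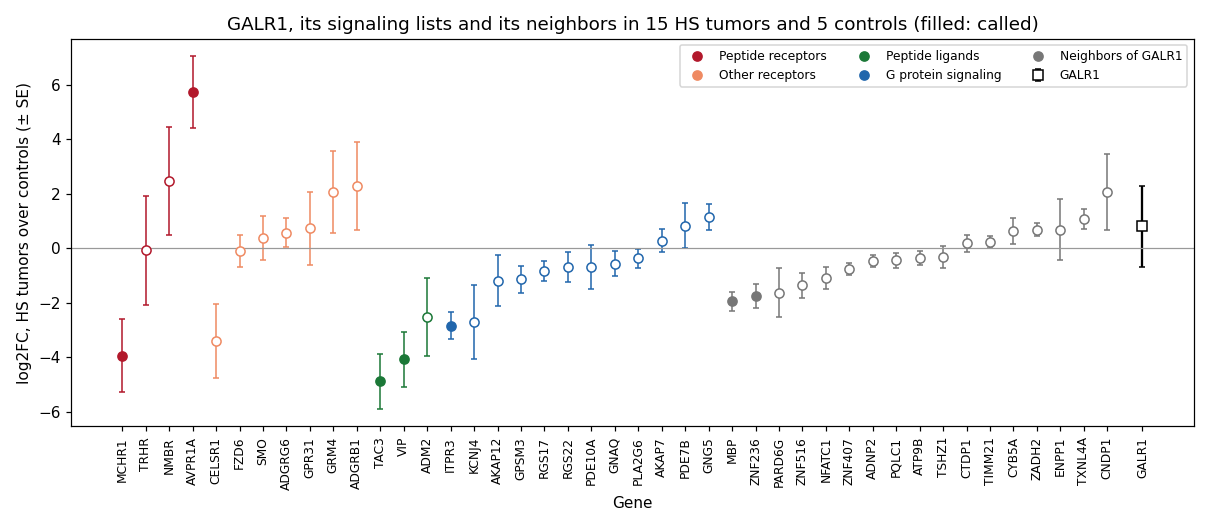
Fitted log2FC of the 15 HS tumors over the 5 controls, with SE as bars, for the tested genes of 5 lists and for GALR1, with filled points for genes past both thresholds. GALR1 (0.80) has a log2FC smaller than its SE, while AVPR1A (5.73) is the gene called higher.

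None of the list genes was called in edgeR between lung and other HS tumors (0 of 18066 genes, 0.0%, with 790 at an unadjusted p under 0.05 and 39 called by DESeq2) or between HHS and HS tumors. In the second of these comparisons the lists had 0 genes at an unadjusted p under 0.05. The median log2FC of the tested peptide receptors was −1.32 in HHS over HS, beside −0.12 over all genes.

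On the chromosome, *GALR1* lies between the coding genes *SALL3* and *MBP* in the RefSeq annotation of UU_Cfam_GSD_1.0, a build other than that of the counts, and 0 annotated genes overlap it there. That annotation gives the gene 23 transcripts, 1 coding and 22 noncoding. Of 19 named neighbors by identifier order, 17 were tested in HS tumors against controls, 0 were called higher and 2 lower, a share near the 10.0% of all genes tested, with a median log2FC of −0.35. *MBP*, myelin basic protein, held 21.1 to 59.02 CPM in the 5 controls and 3.13 to 25.6 CPM in the HS tumors. Only HS51 overlapped these 5 controls (edgeR log2FC −1.96, SE 0.34, adjusted p = 5.26e-04). The liver control, left out of that fit, held 6.24 CPM, inside the HS range. The zinc finger gene *ZNF236* had a log2FC of −1.75 (SE 0.45, adjusted p = 0.0082). With only those of spleen and lung as controls, *MBP* was at −1.10 (adjusted p = 0.185) and *ZNF236* at −0.24 (adjusted p = 0.86), and without blood control 35779 *ZNF236* was at −1.38 (adjusted p = 0.054). Over the 18 tumors the Spearman rho of the 19 neighbors with *GALR1* ran from −0.37 to 0.42 with a median of 0.07, the highest being *MBP*.

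The genes whose level over the 18 tumors was most like that of *GALR1* were taken by Spearman rho of log2 CPM among 816 named genes. The first 4 were *ERICH5* (0.79), *RNF19A* (0.76), *DCSTAMP* (0.74) and *STK3* (0.73). The highest rho of any of the 14402 genes compared was 0.82 and the median 0.02. These are descriptions over 18 points, 7 of them tied at 0 counts of *GALR1*, and they share library depth. These 4 genes lie on a single chromosome in the RefSeq annotation, not that of *GALR1*. It holds 101 of the 793 named genes matched by symbol, and 12 of the 18 named genes with a rho above 0.5. Its median rho of 0.13 equalled that of the chromosome of *GALR1*. The matched named genes lie almost all on this chromosome and on chromosomes 1, 10, 11, 12 and 14, so they do not survey the genome. With the 15 HS tumors alone *ERICH5*, *RNF19A* and *STK3* stayed among the top 5.

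*ERICH5*, a glutamate-rich protein, held 6.25 CPM in HS53, 1.19 CPM in HS46 and 0.802 CPM in HS41. Its lung HS tumors held 0.818 to 2.11 CPM, above the median of 0.389 CPM for the other HS tumors, whose highest was 1.54 CPM (HS50). The 5 controls held 0.140 to 0.826 CPM. In the cells it was 11.2 CPM in DC3F9, 6.85 CPM in PJ, 5.86 CPM in BD and 5.18 CPM in OD, so BD carried it with 0 counts of *GALR1*.

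*DCSTAMP* encodes a membrane protein needed for the fusion of macrophages and osteoclasts into cells with many nuclei. It held 45.6 CPM in HS53, 4.83 CPM in HS46 and 2.32 CPM in HS41. The HS tumors ran from 0.00706 CPM over a median of 0.552 CPM to 16.0 CPM in HS52, which was also the HS tumor with most *GALR1*. HS50, a liver tumor with 1 count of *GALR1*, held 13.9 CPM, so the likeness had exceptions. Blood controls held 9.03 to 11.1 CPM, the spleen control 0.390 CPM, the lung control 0.241 CPM and the liver control 0.0055 CPM. In the cells the level was 165 CPM in DC3F9, 57.2 CPM in PJ, 12.3 CPM in BD and 6.20 CPM in OD.

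**Figure D4:**
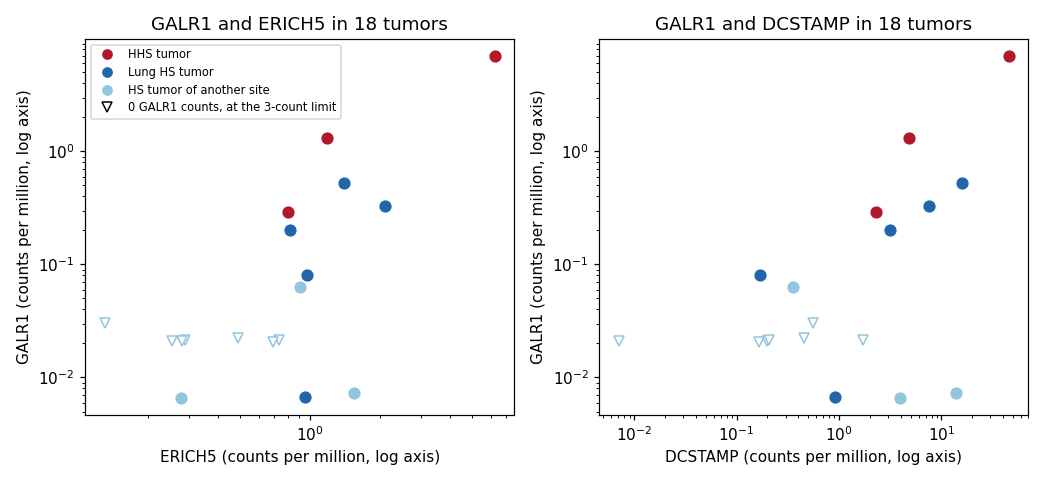
GALR1 against ERICH5 and DCSTAMP (all in CPM, log axes) in the 18 tumors, 1 point per tumor, with open triangles at the 3-count limit where GALR1 had 0 counts. HS53 is the highest tumor for all 3 genes, and HS50, with 1 GALR1 count, stands out at 13.9 CPM of DCSTAMP.

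*RNF19A* and *STK3* were abundant everywhere and varied less. *RNF19A*, a ubiquitin ligase, held 62.0 to 125 CPM in the HHS tumors and 28.9 to 103.9 CPM in the HS tumors. *STK3*, a kinase of the Hippo pathway, held 23.3 to 50.4 CPM in the HHS, 12.6 to 30.6 CPM in the HS tumors and 5.10 to 42.3 CPM in the 5 controls. For both genes the HHS range overlapped the HS range, and HS53 was the highest tumor.

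Marker lists of other cell types in the tumors were set beside these levels. The 5 T and NK cell genes summed to 28.6 to 99.6 CPM in the HHS tumors, 14.6 to 55.2 CPM in the lung HS and 15.8 to 235 CPM in the other HS tumors. The 8 genes of Schwann and pigment cells summed to 9.98 to 43.9 CPM in the HHS tumors, 12.03 to 26.4 CPM in the lung HS and 7.88 to 74.3 CPM in the other HS tumors. In the controls they summed to 47.3 to 124 CPM. Most of the sum in the 3 blood controls was *MBP*, 34.9 of 47.3 CPM in blood control 35780, so the sum does not measure these cells. The 4 endothelial genes summed to 25.7 to 74.6 CPM, 9.22 to 55.3 CPM and 5.32 to 132 CPM in the 3 tumor groups in that order. None of these sums separated HHS from HS tumors or lung from other HS tumors, and their part in the *GALR1* levels was not tested.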

How the data were processed

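RNA was measured in 18 tumors, 6 controls, 3 cell lines and DC3F9. The deposited values are raw counts per gene, which the authors made with HTSeq 2.0.0 from reads trimmed by cutadapt 3.7 and mapped by STAR 2.7.10a to the CanFam3.1 genome, without normalization or filter. The annotation release and strand option of the counting are not given in the sources used here, so overlapping or antisense genes may share reads. Tumor libraries were made from total RNA depleted of ribosomal and globin RNA. For the cells the study's methods name an mRNA kit and the labels a total RNA kit.

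Groups came from the labels, with 0 count columns left unmapped. From the counts, CPM of library totals, log2 CPM (prior count 2) and log2FC were computed in edgeR 4.0.16 under R 4.3.3 (TMM factors, filterByExpr with a minimum count of 10, quasi-likelihood test, Benjamini-Hochberg adjustment over all genes tested), with DESeq2 1.42.0 as the alternative. limma 3.58.1 was loaded by edgeR. A gene was called where its log2FC lay beyond ±1.5 with an adjusted p-value under 0.05. Exact two-sided permutation tests, Spearman correlations, exact 95% intervals and figures used Python 3.11.15, scipy 1.17.1, numpy 2.4.6, pandas 2.3.3 and matplotlib 3.10.9. The fits were tested on simulated counts.

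*GALR1*, the comparisons, the gene lists and the rule for naming genes were chosen with earlier results of these data known. The rule named the called genes of each list, *GALR3* and the 5 named genes with the highest rho (1 of them is not reported here), and *AGER*, *GNAQ*, *SALL3*, *CCDC170*, *RSPH4A* and *KIF6* were named in addition. The planned test of *GALR1* in HS tumors against controls is given as a description. Symbols came from the supplementary lists, which pair 1025 of 1261 listed identifiers with a dog symbol. The RefSeq table matched 0 identifiers and was read by symbol. The study's own fold changes and p-values were not used.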

Additional observations from a re-analysis of the deposited data

Results flagged for a closer look

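HS4, a thoracic mass, stood apart from the other HS tumors outside the lung. It held 9 counts of *GALR1* (0.0633 CPM), and the next highest of these 10 tumors held 0.00730 CPM, so that the gap was 0.885 of the whole range, beyond the critical value of 0.466 for a sample far from the others. That critical value flags about 1 in 20 groups of normally distributed values. Here 7 of the 10 tumors held 0 counts, so that rate does not hold for this group. In all, 3 groups were examined.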

How the results depend on the processing

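For *GALR1* in HS tumors against controls, a description, the difference of mean log2 CPM was −0.20, opposite in sign to the fit, and the cause was not tested. Leaving out each control gave 0.49 to 1.35. For lung against other HS tumors, edgeR and DESeq2 with the filter, and most fits that left out a tumor, gave no value because *GALR1* was filtered out. The planned fit without the filter gave 4.76, and its variants, added after seeing the data, gave 3.14 to 6.55, none called. The exact permutation test passed 0.05, with 3.097, with 3.32 without HS4 and with 3.29 without the thorax tumors. Leaving out each lung tumor gave differences of mean log2 CPM of 2.65 to 3.82 (exact permutation p = 0.002 to 0.00599). The fits that gave a value had a log2FC of 4.22 to 5.08 (edgeR adjusted p = 0.382 to 0.711). Lung against liver tumors ran from 5.56 to 7.998, all uncalled. Leaving out a library moved the HHS description to 3.33 to 5.51 against HS and to 4.18 to 6.36 against controls, HS53 giving the lowest of each, and that of the cell lines over DC3F9 from −4.72 to between −8.40 and −2.24 CPM (−7.57 with TMM factors).

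*MCHR1* was at 2.40 against blood only, and leaving out each control gave −4.27 to 1.64. Called genes rose from 0 to 2 without the filter and to 39 with DESeq2 in lung against other HS tumors, and from 0 to 4 and 1 in HHS against HS tumors. Of the 5 most similar genes 3 were shared with the HS tumors alone and 5 with Pearson correlation. TMM factors moved 4 of 28 library levels outside their counting interval, PJ, DC3F9, HS53 (6.24 CPM) and the liver control (0.0646 CPM). No paired analysis was possible because replicate numbers were given in accession order only. Most HS tumors lie under the 3-count limit, so depth limits any difference among them.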
